A study of Mus musculus with 4 samples.

Results

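The genes described here are 51 genes of mitosis, the kinetochore and the spindle checkpoint, taken from 18454 genes tested. They were chosen by name: a probe belonged to a member if its gene name in the scanner files was the member's symbol or an older alias, which brought in Cdk1 as Cdc2a and Bora as 6720463M24Rik. All 51 members had a probe that passed the filter on dim probes and was well above background in both channels on all arrays, and the brightest such probe stood for each gene. Cultured mouse spermatogonial stem cells (SSCs, germ cells of the testis that renew themselves and give rise to sperm) came from C57/BL6 x DBA/2 F1 mice, with an age of day 5 in the labels. The control cells grew in a serum-free medium based on MEMa that held GDNF at 40 ng/ml and FGF2 at 5 ng/ml, growth factors that support these cells in culture. The treated cells were grown without FGF2 and with SU5402, an inhibitor of FGF receptors, and the 12 h in the labels is given for them alone. The comparison addresses which genes respond to FGF2 signalling. The treated cells lacked FGF2 and also received SU5402, so effects of the growth factor's absence and of the drug cannot be told apart. Each of the 4 arrays held 1 treated sample in green (Cy3) and 1 control sample in red (Cy5), and the design text calls the 4 samples of each kind biological replicates. The dyes were never swapped, so a dye effect on a single gene and the treatment cannot be told apart. The sources used here do not say whether feeder or somatic cells were in the cultures.

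Dividing cells enter mitosis when cyclin B and the kinase CDK1 become active, with help from the Polo and Aurora kinases and the CDC25 phosphatases. Kinetochores, protein plates built on the centromeres, then attach the chromosomes to spindle microtubules, and the spindle checkpoint holds back the anaphase-promoting complex until every chromosome is attached. CDC20 and UBE2C then drive the breakdown of securin and cyclin B, separase frees the sister chromatids, and the midzone proteins divide the cell. Most of these genes are transcribed in G2 and M phase under the DREAM complex, MYBL2 and FOXM1, so their RNA level in a bulk culture follows the share of cells in these phases as well as transcription in each cell. In bulk samples such as these, fewer dividing cells and less RNA per cell cannot be told apart.

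Most of the mitotic genes fell in the treated cells, none of them by 2-fold or more, a size reached by 1.66% of all genes tested. Of the 51 members, 38 (74.5%) fell and 0 rose at an adjusted p under 0.05 (limma, Benjamini-Hochberg over all genes). Over all genes tested, 30.9% fell and 37.5% rose by the same rule, 68.4% in all. With the scanner software's LogRatio, 42.5% of all genes fell and 30.3% rose. When median centring replaced loess, 25 members (49.0%) and 19.4% of all genes fell. At an unadjusted p under 0.05, 38 members were lower and 0 higher, and 0 members were called higher under the alternatives tried, apart from the use of the second brightest probe, which called 4 higher. The median log2 ratio of treated over control was -0.33 for the members and 0.023 for all genes. The ratio was below 0 on all 4 arrays for 37 members, against 34.4% of all genes. In 31 members all 4 treated signals lay below all 4 control signals, against 27.1% of all genes. The falls ranged from cyclin F at -0.99 to Mki67 at -0.17, and 16 members were below -0.5.

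**Figure D1:**
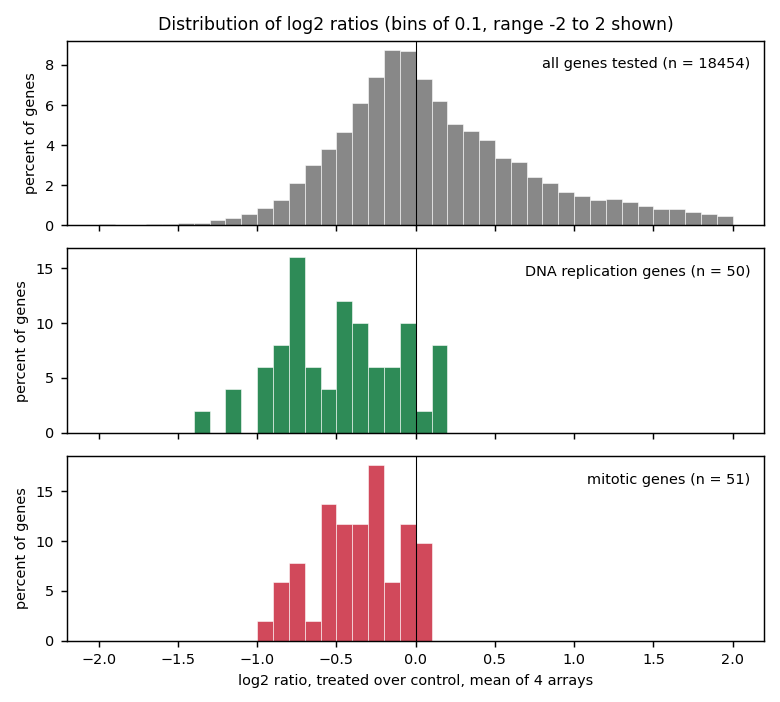
Share of genes (percent, vertical axis) by log2 ratio of treated over control, mean of 4 arrays (horizontal axis), for 18454 genes tested, 50 DNA replication genes and 51 mitotic genes. The mitotic genes lie between -0.99 and 0.062, with a median of -0.33, while all genes centre on 0.023.

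The size of the fall differed between arrays. The members' median ratio was -0.30 on array 1, -0.35 on array 2, -0.46 on array 3 and -0.21 on array 4. The number of members below 0 was 45, 51, 47 and 42 on the same arrays. Among the 18454 genes tested it was 8648, 8867, 8946 and 8967. Array 3 gave the lowest of the 4 ratios in 22 members (43.1%, against 31.7% of all genes). Arrays 1 and 4 each gave the highest ratio in 19 members, and array 4 did so in 25.2% of all genes. The SD between arrays ran from 0.033 in Ccnb1 to 0.42 in Anln, with a median of 0.16. On every array all members were well above background in both channels, and no spot was saturated.

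**Figure D2:**
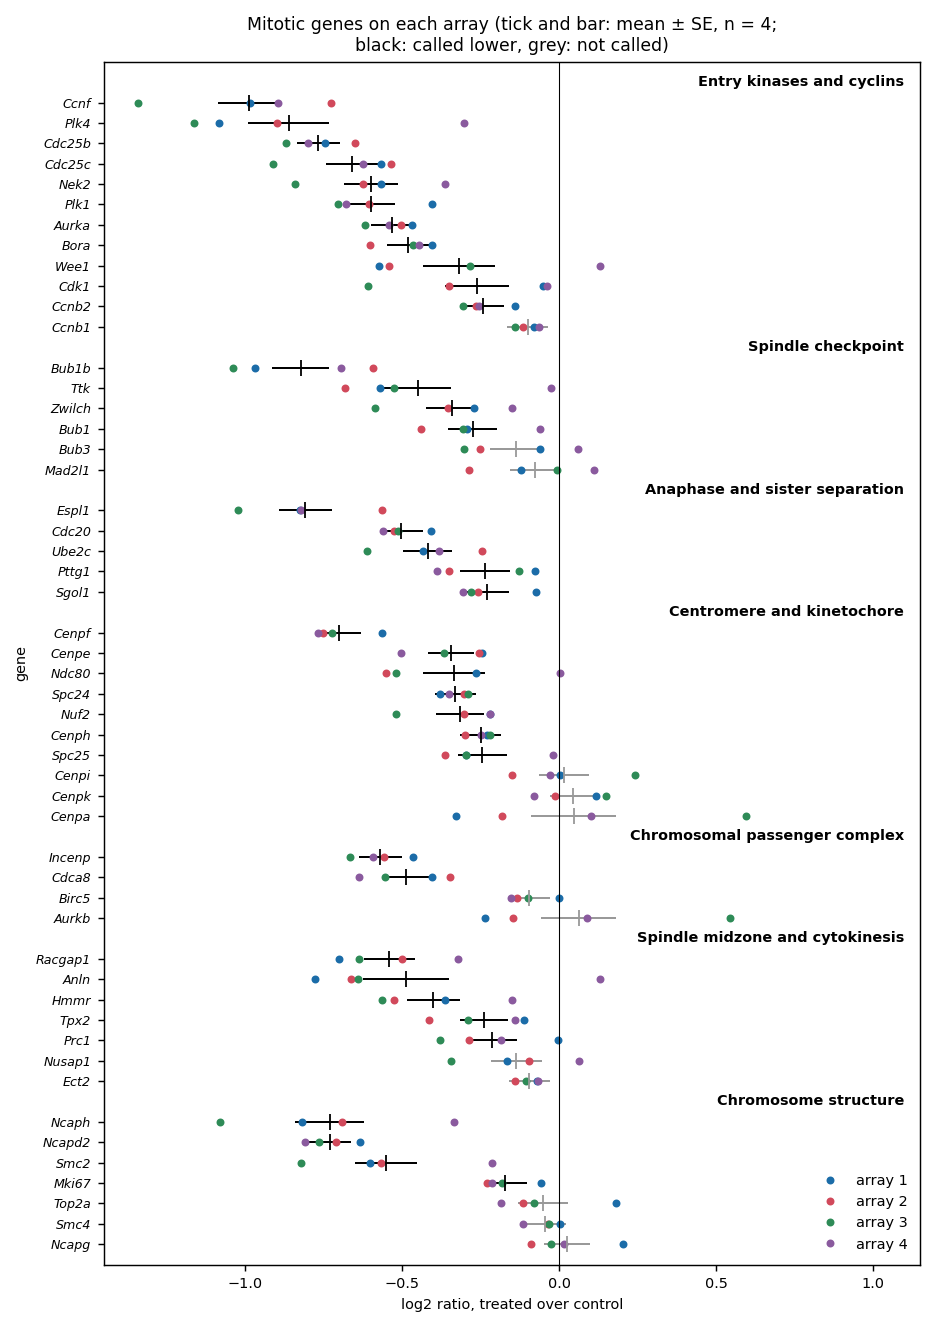
Log2 ratio of treated over control (horizontal axis) of each of the 51 members on each of the 4 arrays (coloured points), with the mean and SE of the limma fit (tick and bar), grouped by role. Most points lie left of 0, and Anln, Plk4 and Wee1 have array 4 (purple) well to the right of the other arrays.

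The group of entry kinases and cyclins, which also holds Wee1 and genes of the centrosome cycle, had the lowest median of the 7 role groups. Its median log2 ratio was -0.57, and 11 of 12 fell and 0 rose, against 30.9% and 37.5% of all genes. The largest falls were those of Ccnf and Plk4, while Cdk1, Ccnb2 and Ccnb1 were at -0.26, -0.24 and -0.10. Ccnf, cyclin F, is a substrate receptor of an SCF ubiquitin ligase and no CDK partner. Its log2 signal (background-corrected, scaled across arrays) was 11.68, 11.90, 11.90 and 11.69 in the treated samples of arrays 1 to 4 and 12.67, 12.63, 13.24 and 12.59 in the controls. The groups did not overlap, and Ccnf was 1.98-fold lower, a log2 ratio of -0.99 (SE 0.099, n = 4, limma adjusted p = 2e-05). Cdc25b encodes a phosphatase that activates CDK1. Its log2 signal was 12.66, 12.77, 12.86 and 12.75 in the treated samples and 13.41, 13.42, 13.74 and 13.55 in the controls, again without overlap. It was 1.70-fold lower, a log2 ratio of -0.77 (SE 0.070, limma adjusted p = 1.07e-05), the smallest adjusted p among the members. Cdc25c, of the same phosphatase family, had ratios of -0.57, -0.53, -0.91 and -0.63 and was 1.58-fold lower (SE 0.082, limma adjusted p = 7.98e-05).

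The kinase genes of this group fell, and Bora with them. Plk1, the Polo kinase of mitotic entry and spindle assembly, had treated log2 signals of 14.67, 14.39, 14.40 and 14.43 and control signals of 15.07, 14.99, 15.11 and 15.11. All treated samples were lower, and the mean log2 ratio was -0.60 (SE 0.075, limma adjusted p = 9.01e-05). Aurka, the Aurora kinase of the spindle poles, had ratios of -0.47, -0.50, -0.62 and -0.54, and Bora, which helps Aurora A to activate PLK1, of -0.41, -0.60, -0.46 and -0.45. Nek2, a kinase of centrosome separation, had ratios of -0.57, -0.62, -0.84 and -0.36. Plk4, the kinase of centriole duplication, was at -1.08, -0.90 and -1.16 on arrays 1 to 3 and at -0.30 on array 4. Its mean was -0.86 (SE 0.13, limma adjusted p = 0.000285), and its second brightest probe gave -0.24. Wee1, the kinase that restrains CDK1, was at -0.57, -0.54 and -0.28 on arrays 1 to 3 and at 0.13 on array 4.

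The genes of CDK1 and the cyclins B had small ratios. Cdk1 had ratios of -0.05, -0.35, -0.61 and -0.04, with overlapping treated and control signals, and a mean of -0.26 (SE 0.10, limma adjusted p = 0.0448). Ccnb2 was 1.18-fold lower, with ratios of -0.14, -0.27, -0.31 and -0.26 (limma adjusted p = 0.0104), and median centring instead of loess gave -0.53. Ccnb1 was the member of this group that did not pass the test. Its treated log2 signals were 14.15, 14.23, 14.14 and 14.23 and its control signals 14.23, 14.35, 14.28 and 14.29, and the ratio was -0.10 with a 95% interval of -0.25 to 0.05 (limma adjusted p = 0.2). This value belongs to the brightest of 3 probes, and the others gave -0.36 and -0.49, both called lower.

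Promoter sequences of members with larger and smaller falls are given here because the members moved mostly in the same direction and genes of this kind are known for shared promoter elements. The cell cycle genes homology region (CHR), bound by DREAM and MYBL2-containing complexes, was searched as TTTGAA, and the CCAAT box, bound by NF-Y, as CCAAT, both on either strand. The windows are those of RefSeq (GRCm38.p6), from 250 bases before to 50 bases after each annotated start, and 41 of the 51 members matched by symbol. Windows of Aurkb, Bora, Cdc25c, Incenp, Sgol1, Smc4, Spc24, Tpx2, Wee1 and Zwilch were not used here. Capitals mark every match. Ccnf had the largest fall, Espl1 and Cdc20 fell with matches to each motif close before the start, Ccnb2 fell little, Top2a did not pass the test, and Plk4 fell with no match.
Ccnf, chr17:24251360-24251659, minus strand: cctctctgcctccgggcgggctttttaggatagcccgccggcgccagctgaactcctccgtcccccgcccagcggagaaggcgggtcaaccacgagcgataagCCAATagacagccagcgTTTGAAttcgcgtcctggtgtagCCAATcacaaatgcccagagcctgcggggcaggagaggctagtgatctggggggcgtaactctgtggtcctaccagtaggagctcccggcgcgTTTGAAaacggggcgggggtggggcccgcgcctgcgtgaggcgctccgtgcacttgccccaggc
Espl1, chr15:102296043-102296342, plus strand: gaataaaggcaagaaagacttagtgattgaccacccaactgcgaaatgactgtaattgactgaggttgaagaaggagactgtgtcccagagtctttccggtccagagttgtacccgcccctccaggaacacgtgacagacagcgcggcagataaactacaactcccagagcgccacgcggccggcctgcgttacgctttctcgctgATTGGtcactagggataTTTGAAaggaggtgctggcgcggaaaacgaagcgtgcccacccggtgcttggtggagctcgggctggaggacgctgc
Cdc20, chr4:118437294-118437593, minus strand: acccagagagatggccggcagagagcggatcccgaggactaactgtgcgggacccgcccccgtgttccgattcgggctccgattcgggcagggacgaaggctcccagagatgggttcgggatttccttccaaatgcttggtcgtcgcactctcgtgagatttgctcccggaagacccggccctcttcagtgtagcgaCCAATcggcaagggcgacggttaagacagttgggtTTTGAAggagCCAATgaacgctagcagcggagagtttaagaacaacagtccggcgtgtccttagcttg
Ccnb2, chr9:70421505-70421804, minus strand: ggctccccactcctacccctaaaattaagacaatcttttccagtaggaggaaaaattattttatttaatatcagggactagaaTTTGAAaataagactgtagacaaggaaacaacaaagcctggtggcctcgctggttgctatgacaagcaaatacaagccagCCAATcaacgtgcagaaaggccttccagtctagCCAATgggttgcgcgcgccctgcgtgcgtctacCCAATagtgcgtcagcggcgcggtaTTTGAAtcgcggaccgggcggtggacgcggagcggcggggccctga
Top2a, chr11:99024140-99024439, minus strand: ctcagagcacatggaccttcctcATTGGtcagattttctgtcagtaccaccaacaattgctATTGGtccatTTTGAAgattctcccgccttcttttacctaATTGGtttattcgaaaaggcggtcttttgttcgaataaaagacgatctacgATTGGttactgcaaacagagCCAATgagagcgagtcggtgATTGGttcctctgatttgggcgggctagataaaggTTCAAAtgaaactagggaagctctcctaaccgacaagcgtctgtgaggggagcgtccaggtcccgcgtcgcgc
Plk4, chr3:40799701-40800000, plus strand: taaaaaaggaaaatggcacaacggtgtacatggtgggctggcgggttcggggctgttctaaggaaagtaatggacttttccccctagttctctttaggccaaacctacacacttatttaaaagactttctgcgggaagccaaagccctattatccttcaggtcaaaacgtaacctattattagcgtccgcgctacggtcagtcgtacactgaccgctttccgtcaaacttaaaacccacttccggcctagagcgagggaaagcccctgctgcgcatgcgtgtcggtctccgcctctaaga

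The CHR letters were found in 26 of the 41 members (63.4%), against 20.2% of all 27025 genes with a window. The CCAAT letters were found in 32 (78.0%), against 41.1%, and each of the motifs in 24 (58.5%), against 7.97%. Members with a CHR match had a median log2 ratio of -0.43 and 21 of 26 fell, while the 15 without had a median of -0.25 and 9 fell. For the CCAAT letters the medians were close, -0.37 with and -0.32 without, and 24 of 32 and 6 of 9 fell. With both motifs the median was -0.43 and 19 of 24 fell, against -0.28 and 11 of 17 for the rest. The share that fell over all genes tested was 30.9%. These splits are descriptions, with no test, and a match in these windows is not a measured site. Matches also occurred in members that did not pass the test, such as Top2a, Bub3, Ncapg and Cenpa, and large falls occurred in Plk4 and Ncaph without either motif in the window.

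**Figure D3:**
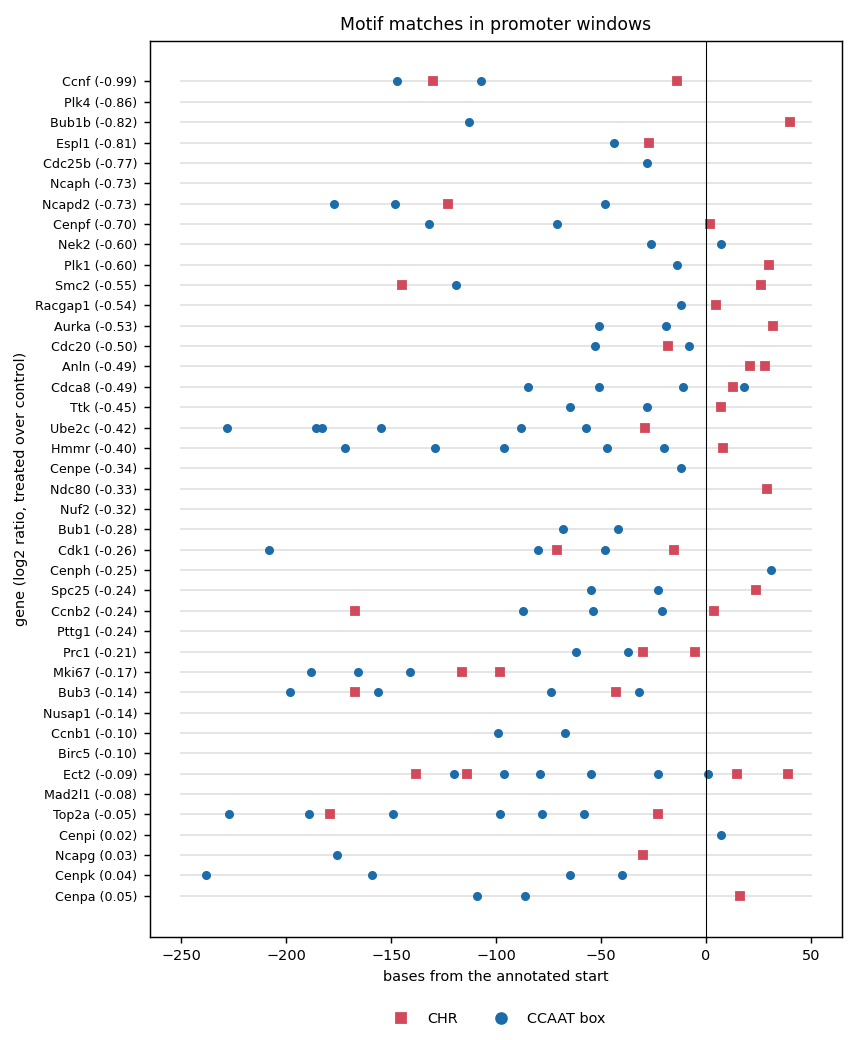
Start of each CHR match (red squares) and CCAAT match (blue circles) in bases from the annotated start (0; horizontal axis) for the 41 members with a promoter window, ordered from the largest fall at the top, with the log2 ratio in brackets. Genes with more than 1 annotated start (Bub3, Cenpk, Ect2 and Prc1) carry the matches of all their windows, and 26 members have a CHR match.

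Of the spindle checkpoint genes, 4 of 6 fell and 0 rose (median log2 ratio -0.31), against 30.9% and 37.5% of all genes. Bub1b, which encodes BUBR1, a part of the complex that inhibits CDC20, had treated log2 signals of 13.03, 13.46, 13.28 and 13.36 and control signals of 13.99, 14.05, 14.31 and 14.06. The groups did not overlap, and it was 1.77-fold lower, a log2 ratio of -0.82 (SE 0.089, limma adjusted p = 3.38e-05). Ttk, the MPS1 kinase that starts the checkpoint signal, had ratios of -0.57, -0.68, -0.53 and -0.03, so arrays 1 to 3 lay far from array 4. Zwilch, a subunit of the RZZ complex at kinetochores, had ratios of -0.27, -0.35, -0.59 and -0.15. Bub1, the kinase that recruits the other checkpoint proteins, was 1.21-fold lower (limma adjusted p = 0.0119).

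Bub3 and Mad2l1, whose products join BUBR1 and CDC20 in the inhibitory complex, did not pass the test. Mad2l1 had ratios of -0.12, -0.29, -0.01 and 0.11, with a mean of -0.08 and a 95% interval of -0.26 to 0.11 (limma adjusted p = 0.424). Bub3 had ratios of -0.06, -0.25, -0.30 and 0.06, with a mean of -0.14 and an interval of -0.32 to 0.04 (limma adjusted p = 0.156). Treated and control signals overlapped in both genes. The second brightest probe of Bub3 gave -0.48 and was called lower.

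All 5 genes of anaphase and sister separation fell, against 30.9% of all genes, with a median log2 ratio of -0.42. Espl1 encodes separase, the protease that opens the cohesin ring. Its treated log2 signals were 12.99, 13.12, 13.06 and 12.88 and its control signals 13.82, 13.68, 14.08 and 13.70, with no overlap. Espl1 was 1.75-fold lower, a log2 ratio of -0.81 (SE 0.084, limma adjusted p = 2.64e-05). Cdc20, the activator of the anaphase-promoting complex, had treated signals of 16.39, 16.31, 16.28 and 16.32 and control signals of 16.80, 16.84, 16.79 and 16.89. Its 4 ratios lay close together (SD 0.067), and it was 1.42-fold lower, a log2 ratio of -0.50 (SE 0.067, limma adjusted p = 0.000136). Median centring instead of loess gave a log2 ratio of -0.92. Ube2c, the ubiquitin-conjugating enzyme of the same complex, had ratios of -0.43, -0.24, -0.61 and -0.38. Pttg1, securin, and Sgol1, the protector of centromeric cohesin, had smaller falls, of 1.18-fold and 1.17-fold.

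Centromere and kinetochore genes split, with 7 of 10 lower and 0 higher (median log2 ratio -0.28), against 30.9% and 37.5% of all genes. Cenpf, a large protein of the outer kinetochore, had treated log2 signals of 14.83, 14.67, 14.68 and 14.64 and control signals of 15.40, 15.42, 15.40 and 15.41. It was 1.63-fold lower, a log2 ratio of -0.70 (SE 0.070, limma adjusted p = 1.92e-05), while its second brightest probe gave -0.22 (not called). The motor gene Cenpe had ratios of -0.25, -0.26, -0.37 and -0.50, and its other probes gave -0.27 (called lower) and -0.05 (not called). All 4 genes of the NDC80 complex, which binds microtubules, fell. Spc24 had ratios of -0.38, -0.30, -0.29 and -0.35, and the means of Ndc80, Nuf2 and Spc25 were -0.33, -0.32 and -0.24. On array 4, Ndc80 was at 0.00 and Spc25 at -0.02. Cenph, of the inner kinetochore, was 1.19-fold lower with 4 ratios between -0.30 and -0.22 on its brightest probe. Its second probe gave -0.02 and the mean of both -0.13, and neither was called (limma adjusted p = 0.905 and 0.205).

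The histone H3 variant gene Cenpa, which marks the centromere, and the inner kinetochore genes Cenpi and Cenpk did not pass the test. Cenpa had treated log2 signals of 13.68, 13.92, 13.86 and 13.95 and control signals of 14.01, 14.11, 13.26 and 13.85. Its ratios of -0.33, -0.18, 0.60 and 0.10 spread widely (SD 0.41), which left a 95% interval of -0.26 to 0.35 around a mean of 0.05. The treated signals of Cenpa stayed within a narrow range, and the control sample of array 3 was the low value. Cenpi had ratios of 0.00, -0.15, 0.24 and -0.03 (mean 0.02, interval -0.17 to 0.20). Cenpk had ratios of 0.12, -0.01, 0.15 and -0.08 (mean 0.04, interval -0.12 to 0.21). A second probe of Cenpk gave 0.28 and was called higher.

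The chromosomal passenger complex, which corrects faulty attachments and later drives cytokinesis, also split, with 2 of 4 genes lower and 0 higher. Among all genes the shares were 30.9% lower and 37.5% higher. Incenp, its scaffold, had treated log2 signals of 15.69, 15.67, 15.59 and 15.70 and control signals of 16.15, 16.23, 16.25 and 16.29. It was 1.48-fold lower, a log2 ratio of -0.57 (SE 0.069, limma adjusted p = 6.93e-05), and median centring instead of loess gave -0.89. Cdca8, borealin, had ratios of -0.41, -0.35, -0.55 and -0.64. It was at -0.83 with median centring, and its second brightest probe gave 0.044.

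Aurkb, the kinase of the passenger complex, and Birc5, survivin, did not pass the test. The ratios of Aurkb were -0.24, -0.15, 0.54 and 0.09 (mean 0.06, 95% interval -0.21 to 0.33), and its control signals were 13.25, 13.02, 12.28 and 12.84. As in Cenpa, the control sample of array 3 was the low value, and this likeness was noticed after the values were seen. Birc5 had ratios of 0.00, -0.13, -0.10 and -0.15 (mean -0.10, interval -0.25 to 0.06).

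Of the genes of the spindle midzone and cytokinesis, 5 of 7 fell and 0 rose (median log2 ratio -0.24). By comparison, 30.9% of all genes fell and 37.5% rose. Racgap1, a subunit of centralspindlin, had treated log2 signals of 11.56, 11.66, 11.41 and 11.76 and control signals of 12.26, 12.16, 12.05 and 12.08. It was 1.45-fold lower, a log2 ratio of -0.54 (SE 0.081, limma adjusted p = 0.000276), and its second brightest probe gave -0.27. Hmmr, a spindle-associated protein, had ratios of -0.36, -0.53, -0.56 and -0.15. Anln, anillin of the contractile ring, was at -0.78, -0.66 and -0.64 on arrays 1 to 3 and at 0.13 on array 4, with a mean of -0.49 (SE 0.14, limma adjusted p = 0.0106). The spindle assembly factor Tpx2 was 1.18-fold lower, and Prc1, which bundles midzone microtubules, 1.16-fold.

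Ect2 and Nusap1 of the same group did not pass the test. Ect2, the exchange factor that activates RhoA, had ratios of -0.07, -0.14, -0.10 and -0.07 (mean -0.09, 95% interval -0.24 to 0.05). Its second probe gave -0.77 and was called lower. The spindle protein gene Nusap1 had ratios of -0.17, -0.10, -0.34 and 0.06 (mean -0.14, interval -0.32 to 0.05).

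Genes of chromosome structure had the smallest median of the 7 role groups, -0.17, with 4 of 7 lower and 0 higher. Among all genes, 30.9% were lower and 37.5% higher. Ncapd2, a regulatory subunit of condensin I, had treated log2 signals of 15.70, 15.46, 15.51 and 15.48 and control signals of 16.33, 16.17, 16.27 and 16.29. It was 1.66-fold lower, a log2 ratio of -0.73 (SE 0.068, limma adjusted p = 1.23e-05), and its other probes gave -0.77 and -0.89. Ncaph, the kleisin of condensin I, had ratios of -0.82, -0.69, -1.08 and -0.33. Smc2, an ATPase core subunit of condensin, had ratios of -0.60, -0.57, -0.82 and -0.21. Mki67, the gene of the proliferation marker Ki-67, was 1.13-fold lower with an adjusted p just inside the threshold (limma adjusted p = 0.0497; 0.0588 when adjusted over all probes), and its second probe gave -0.48.

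The remaining genes of chromosome structure did not pass the test. Smc4, the partner of SMC2, had ratios of 0.00, -0.04, -0.03 and -0.11 (mean -0.04, 95% interval -0.19 to 0.10), and its second probe gave 0.44 and was called higher. Ncapg, another condensin I subunit, had ratios of 0.20, -0.09, -0.03 and 0.02 (mean 0.03, interval -0.14 to 0.19). Top2a, topoisomerase II alpha, had ratios of 0.18, -0.12, -0.08 and -0.19 (mean -0.05, interval -0.23 to 0.13). On their brightest probes the condensin I genes lay apart, with Ncapd2 and Ncaph at -0.73 and Ncapg at 0.03, a difference that was not tested itself.

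Probes of a gene did not always give the same call. Of 90 probes of the members, 82 passed the filter, of which 52 were lower, 4 higher and 26 not called when adjusted over all probes (29.1% of all probes were lower and 37.3% higher). Among 23 members with several kept probes, 7 were lower on every probe, 8 were lower on some and not called on others, and 4 had no call. Another 2 had a higher probe beside uncalled ones (Cenpk and Smc4), and Smc2 and Anln had probes called in each direction. The gap between the lowest and the highest probe had a median of 0.31. In all, 41 of the 51 members had at least 1 probe that fell. A gene with more probes has more chances of such a call. The matching share over all genes was not computed, so this count cannot be set against a background.

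Smc2 showed the widest gap. Its brightest probe, on chromosome 4 at 52500075 to 52500134 (mm9), gave -0.55, and the probe at 52480716 to 52480775 gave 0.42 with ratios of 0.38, 0.23, 0.80 and 0.25. The remaining probes of Smc2 gave 0.19 and -0.24 and were not called. Anln gave -0.49 at 22138566 to 22142382 of chromosome 9 and 0.29 at 22177635 to 22177694. For Ccnb1, whose probes lie on chromosome 13, the probe at 101549634 to 101549693 gave -0.10, that at 101549368 to 101549427 gave -0.36 and that at 101548974 to 101549033 gave -0.49. Which transcripts each probe detects was not analysed here.

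**Figure D4:**
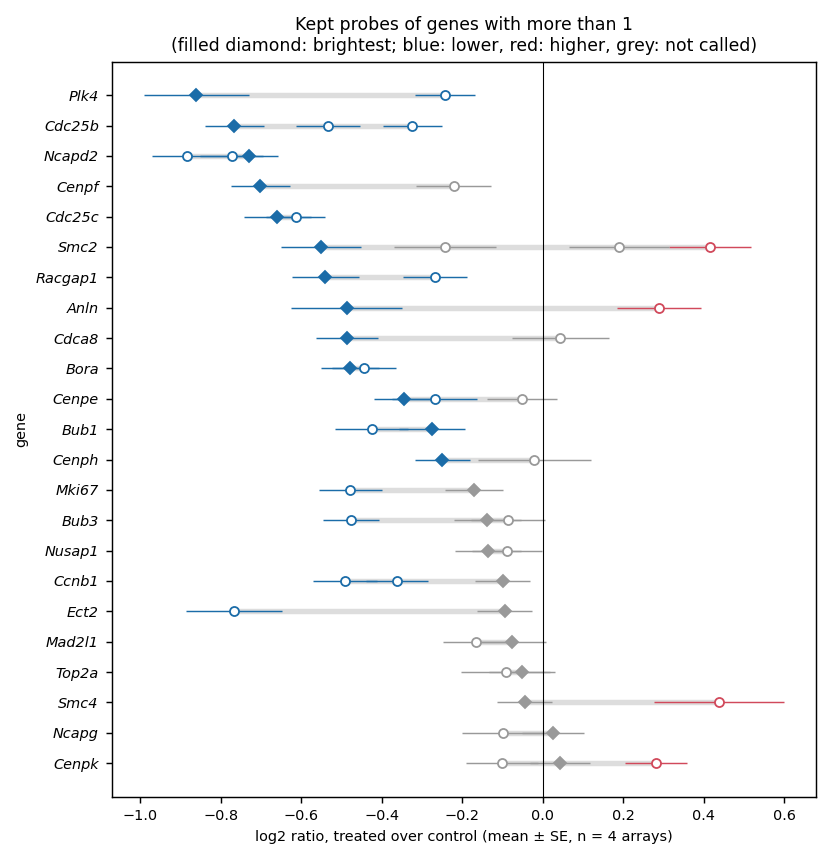
Log2 ratio of treated over control with SE (horizontal axis, n = 4 arrays) of every kept probe of the 23 members with more than 1, ordered by the brightest probe (filled diamond; blue is called lower, red higher, grey not called). Ncapd2, Cdc25c and Bora have probes close together, while the probes of Smc2 run from -0.55 to 0.42.

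The calls rested on the processing to different degrees. A set of 16 members stayed lower under all alternatives that could be computed for them: Ccnf, Cdc25b, Cdc25c, Plk1, Plk4, Aurka, Bora, Nek2, Bub1b, Espl1, Cdc20, Ube2c, Incenp, Racgap1, Ncapd2 and Ncaph. Among these, only Cdc25b, Cdc25c, Plk4, Bora, Racgap1 and Ncapd2 have several kept probes. The rest of the set could not be checked on a second probe. When loess was replaced by median centring, 25 members were lower and 13 lost their call, which were Anln, Cdk1, Cenph, Hmmr, Ndc80, Nuf2, Sgol1, Spc24, Spc25, Tpx2, Ttk, Wee1 and Zwilch (limma adjusted p from 0.0754 to 0.371). Their log2 ratios were then between -0.40 and -0.20, and the median of all members was -0.40 in place of -0.33. Median centring also gave larger falls for Cenpe (-0.56), Mki67 (-0.42), Prc1 (-0.42) and Pttg1 (-0.40). With the mean of all kept probes, Smc2 (-0.047) and Anln (-0.099) were not called. The scanner software's LogRatio, which shifted the median of all genes by -0.15, gave 45 lower. Relative to the median of all genes the members' median was -0.35 here and -0.36 with that LogRatio.

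**Figure D5:**
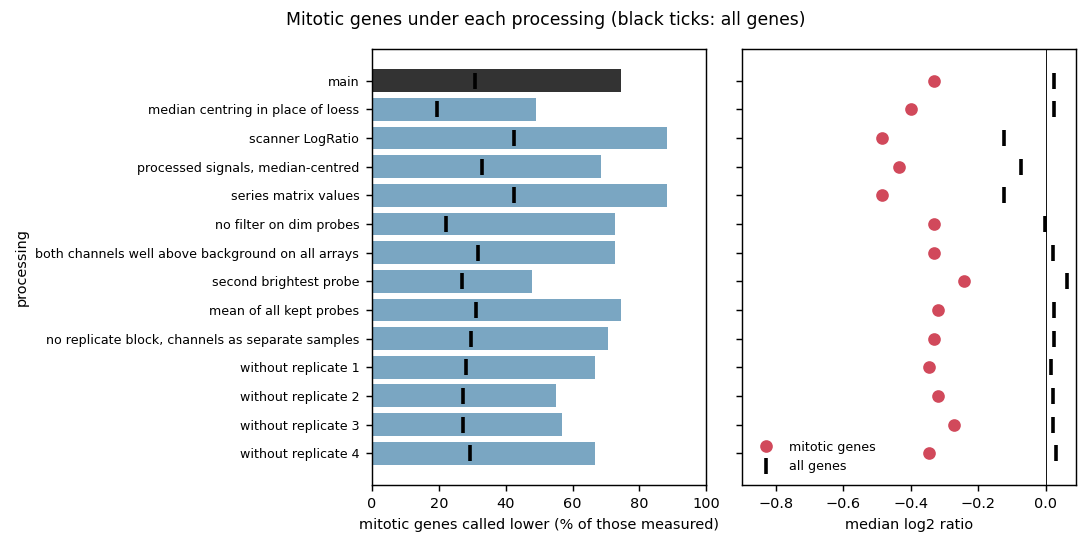
Percent of the measured mitotic genes called lower (bars, left) and their median log2 ratio (red points, right) under the processing used here (main, top bar) and each alternative, with black ticks for all genes. The members' share called lower runs from 47.8% with the second brightest probe to 88.2% with the scanner LogRatio and lies above that of all genes in each case.

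Leaving out single arrays ended the call of 11 members. Mki67 lost it without any 1 of the 4 arrays (limma adjusted p from 0.0566 to 0.168), with log2 ratios from -0.21 to -0.15 against -0.17. Bub1 lost it without array 2 (log2 -0.22, limma adjusted p = 0.0688), and Pttg1 without array 2 (-0.20, adjusted p = 0.109) or array 4 (-0.19, adjusted p = 0.0877), by limma. Cdk1, Ndc80 and Tpx2 lost it without array 2 (log2 -0.23, -0.26 and -0.18, limma adjusted p = 0.137, 0.0722 and 0.111) or array 3 (log2 -0.15, -0.27 and -0.22, limma adjusted p = 0.197, 0.0666 and 0.0627). Anln lost it without array 1 (log2 -0.39, limma adjusted p = 0.0504) or array 3 (log2 -0.44, limma adjusted p = 0.0516). Wee1 and Spc25 lost it without any 1 of arrays 1 to 3 (limma adjusted p from 0.0634 to 0.141), with log2 ratios from -0.33 to -0.21. Prc1 and Sgol1 lost it without any 1 of arrays 2 to 4 (limma adjusted p from 0.054 to 0.143), with log2 ratios from -0.22 to -0.16.

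Of 75 measured genes of the same machinery in 5 further lists, 39 (52%) fell and 14 (18.7%) rose. Over all genes tested, 30.9% fell and 37.5% rose. The median log2 ratio of the 75 genes was -0.21. Among the kinetochore genes outside the members, 13 of 20 were lower and 1 higher, led by Ska3 and Pmf1, of the outer kinetochore, at -1.06 and -1.03. Cohesin and other condensin genes were lower in 8 of 14 and higher in 2, with Cdca5, sororin, at -0.66 and the cohesin regulator Pds5a at -0.46. Subunits and inhibitors of the anaphase-promoting complex went both ways, with 5 of 14 (35.7%) lower and 4 (28.6%) higher, near the shares of all genes. Fzr1, the CDH1 activator of that complex, was 1.74-fold lower and its subunit gene Cdc26 1.59-fold higher. Other regulators of mitotic entry and exit were lower in 6 of 14 (42.9%) and higher in 5 (35.7%), again not far from all genes. The phosphatase gene Cdc14a and the Hippo kinase gene Lats2 were higher by log2 ratios of 0.85 and 0.82.

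The regulators that transcribe or repress mitotic genes included both falls and rises. Of 13 measured genes of the DREAM complex and its partners, 7 (53.8%) were lower and 2 (15.4%) higher, against 30.9% and 37.5% of all genes. Mybl2, the activator B-MYB, was 2.10-fold lower, with a log2 ratio of -1.07 (limma adjusted p = 1.29e-06). Rbl2, the p130 pocket protein of the repressive complex, had ratios of 1.52, 1.91, 1.62 and 1.77 and was 3.26-fold higher (limma adjusted p = 1.44e-07). Rbl1 of the same list went the other way, with a log2 ratio of -0.59. Foxm1 was lower at -0.28, and Lin9, Lin52, Lin54 and Rbbp4 were not called. Of 50 DNA replication genes, 37 (74%) fell and 1 rose, and their median was -0.46, against -0.33 for the mitotic genes, a difference that was not tested.

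Markers of cell types also changed, some lists lower and some higher, and their part in the result was not tested. For comparison, 30.9% of all genes fell and 37.5% rose by the same rule. Of 15 germ cell markers, 14 were measured, all well above background in both channels on all arrays, and 8 were lower and 0 higher (median log2 ratio -0.28). Zbtb16 was not measured. The summed signal of the germ cell markers was between 309864 and 365103 in the treated and between 431494 and 475790 in the control samples. Sertoli cell markers were higher in 11 of 12 (median 2.05), with sums between 535827 and 570214 against 123480 and 129989, and 10 of the 12 were well above background throughout. Fibroblast markers were higher in 11 of 12 (median 1.43), and 8 of 10 macrophage markers were lower (median -0.75). The sums were between 1589250 and 1708540 against 602173 and 705386 for fibroblasts, and between 53147 and 65952 against 124468 and 148474 for macrophages. All these sums are of linear signals, so the brightest genes weigh most in them. In the Sertoli list the brightest was Clu (mean treated log2 signal 18.23), and in the macrophage list Lyz2 (15.60). Of 6 endothelial markers, 5 were measured, with 2 lower and 2 higher (40% each), near the shares of all genes.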

How the data were processed

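Total RNA of treated and control cells was compared on 4 two-channel Agilent arrays. The signal and background intensity values of each spot were deposited by the authors after reading with Agilent Feature Extraction (version 10.5.1.1 per the file headers). The processed intensity values are background-subtracted and dye-normalized, and LogRatio is log10 of red over green, per the file headers. The series matrix deposited by the authors holds log2 values. They equalled log2 of green over red processed signal for 100% of 41174 probes within 0.001, so they are treated over control with no centring, and their column medians were -0.26, 0.011, 0.11 and -0.058.

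Background was corrected by normexp (offset 50), and ratios were normalized by loess within each array, with control spots at weight 0. Spots marked as outliers (141 to 171 per array) were left out. Of 41174 probes, 27730 were kept because one and the same channel exceeded background clearly (the scanner's own flag) on 3 or more arrays. The log2 ratios were tested against 0, two-sided, with limma 3.58.1 in R 4.3.3, with Benjamini-Hochberg adjustment over 18454 genes. Channel signals are log2 values after Aquantile scaling. Names of other genes were updated through RefSeq accessions (25022 probes) or synonyms (1640 probes). Array ratios correlated across genes with r from 0.906 to 0.948, and genes are not independent replicates. The number of arrays limits the precision. The procedure was tested on simulated data.

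The members and gene lists were chosen with earlier results of these data known. All members could be named. Up to 3 members of each role group with the lowest adjusted p were described in most detail. So were members that did not pass the test and members whose probes differ. In each further list the 2 called genes of largest absolute ratio were named, and more genes were named in the list of the DREAM complex and its partners. Alternatives covered normalization, background, filter, probe choice, pairing of channels and leaving out each array.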

Additional observations from a re-analysis of the deposited data

Results flagged for a closer look

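Anln on array 4 stood apart from the other arrays. Its log2 ratio there was 0.13, against -0.78 to -0.64 on the other arrays, a gap of 0.85 of the whole range. It was the only such case among the 51 members, each with 4 arrays, and chance alone gives about 1 in 20.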

How the results depend on the processing

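The members called lower numbered 38, and 25 when median centring replaced loess, 45 with the scanner LogRatio and with the series matrix values, 35 with median-centred processed signals, and 28 to 34 without any 1 array. On second brightest probes, which 23 members have, 11 were lower and 4 higher. There Cdca8 (0.044), Smc2 (0.42), Smc4 (0.44) and Anln (0.29) changed sign. Ncapg also changed sign, from 0.025 to -0.098, and was called on neither probe. The members' median of -0.33 was -0.49 with the scanner LogRatio and the series matrix values and -0.44 with median-centred processed signals, and -0.35 to -0.27 without any 1 array. Relative to all genes it was -0.35, -0.36 and -0.36 under these. Median centring gave 19.4% of all genes lower in place of 30.9%, and 23 of the other pathway genes lower in place of 39, and the cause was not tested. With second brightest probes, 18 of 43 other pathway genes were lower and 4 higher, and 10 of 14 DNA replication genes were lower. These counts rest on fewer genes, and no share of all genes is set beside them here. The main ratio pairs the channels of an array; with the channels as separate samples and no replicate block, 36 members were lower, and Prc1 and Wee1 lost their calls. The remaining alternatives kept each count within 1.5 times. The dyes were not swapped, and 4 arrays limit the precision.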
